A study of Rattus norvegicus with 2 samples.

Results

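The genes of glycolysis, of the pyruvate dehydrogenase complex and of the citrate cycle were followed in rat bone mesenchymal stem cells (BMSCs) that had received either icariin or its solvent. A list of 44 genes was used, named by their roles in these pathways and drawn up with earlier results of these data known, and 43 of them were found among the 24210 genes on the array through the symbol or gene identifier given for each sequence. The remaining gene, Pgd, was not analysed here. Of the 43 genes, 19 belong to glycolysis, 8 to the entry of pyruvate into the mitochondrion, 14 to the citrate cycle or its cytosolic counterparts and 2 to the pentose phosphate pathway. The array carries older names for some of them, such as Pkm2 for Pkm, Fh1 for Fh and Idh3B for Idh3b.

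Both groups consisted of adherent marrow cells of Sprague-Dawley rats aged 4 weeks, taken from femur and tibia and used at passages 2 to 3. The labels give female animals and the methods male ones, and no comparison here used sex. One group was the DMSO control and the other was exposed to icariin, a flavonol glycoside of Epimedium, at 20 µM for 24 h. Each group was measured as total RNA on 1 Cy3 array, so every value below is a single measurement with no standard deviation, no p-value and no replicate check. "Higher" and "lower" describe the icariin array against the DMSO array.

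Glycolysis splits glucose into pyruvate in the cytosol and yields a small amount of ATP and NADH, and lactate dehydrogenase can turn the pyruvate into lactate. The pyruvate dehydrogenase complex turns pyruvate into acetyl-CoA inside the mitochondrion, where the citrate cycle oxidises it and hands electrons to the respiratory chain. Marrow stromal cells are known to lean on glycolysis while they are undifferentiated, and oxidative metabolism increases as osteoblasts form.

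Intensities were on a linear scale after the normalization of the authors, and differences are given as log2 of the icariin value minus log2 of the DMSO value. As a guide to background, the 95th percentile of 1495 olfactory and vomeronasal receptor genes, which marrow cells are not known to depend on, was found for each array. It was 148 for DMSO and 168 for icariin and is called the receptor level. The 9297 genes that exceeded it on both arrays are called detected. The label was checked against marker genes, and 13 of 14 genes of marrow stroma exceeded the receptor level on each array, with summed intensities of 150128 and 170349. Genes of macrophages differed strongly between the arrays. Of 17 macrophage markers, 16 were higher on the icariin array and 10 at least 2-fold higher, 11 exceeded the receptor level in DMSO and 16 in icariin, and their summed intensity was 6903 and 20650. Among 10 general leukocyte markers, 9 were higher, 8 of them at least 2-fold, with sums of 1693 and 3981, whereas 7 of 8 erythroid markers were lower (2800.4 and 1413). None of the markers was at 0. The part of these cells in the differences below was not tested, and in such mixed RNA a smaller number of cells of a type and less RNA per cell cannot be told apart.

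Most of the 43 genes were lower after icariin, and mostly by little. In all, 31 had a lower value and 12 a higher one, and the median log2 difference was -0.25, which is 1.19-fold lower. At least 2-fold lower were 5 genes, namely Aldoc, Pkm and Pfkm of glycolysis, Pdk2, a kinase of the pyruvate dehydrogenase complex, and Pc, pyruvate carboxylase. None was at least 2-fold higher. Over all 24210 genes, 7.01% passed 2-fold downward and 6.51% upward, but these shares include many dim genes. Among the 9297 detected genes the shares were 4.43% and 2.97%, the median difference was -0.05 and 53.8% were lower. The 41 detected pathway genes had 5 genes at least 2-fold lower (12.2%), a median of -0.25 and 30 lower values (73.2%). At a fold of 1.5, 11 of the 41 genes were lower (26.8%) against a background of 14.5%, and 1 was higher (2.44%) against 10.3%.

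**Figure D1:**
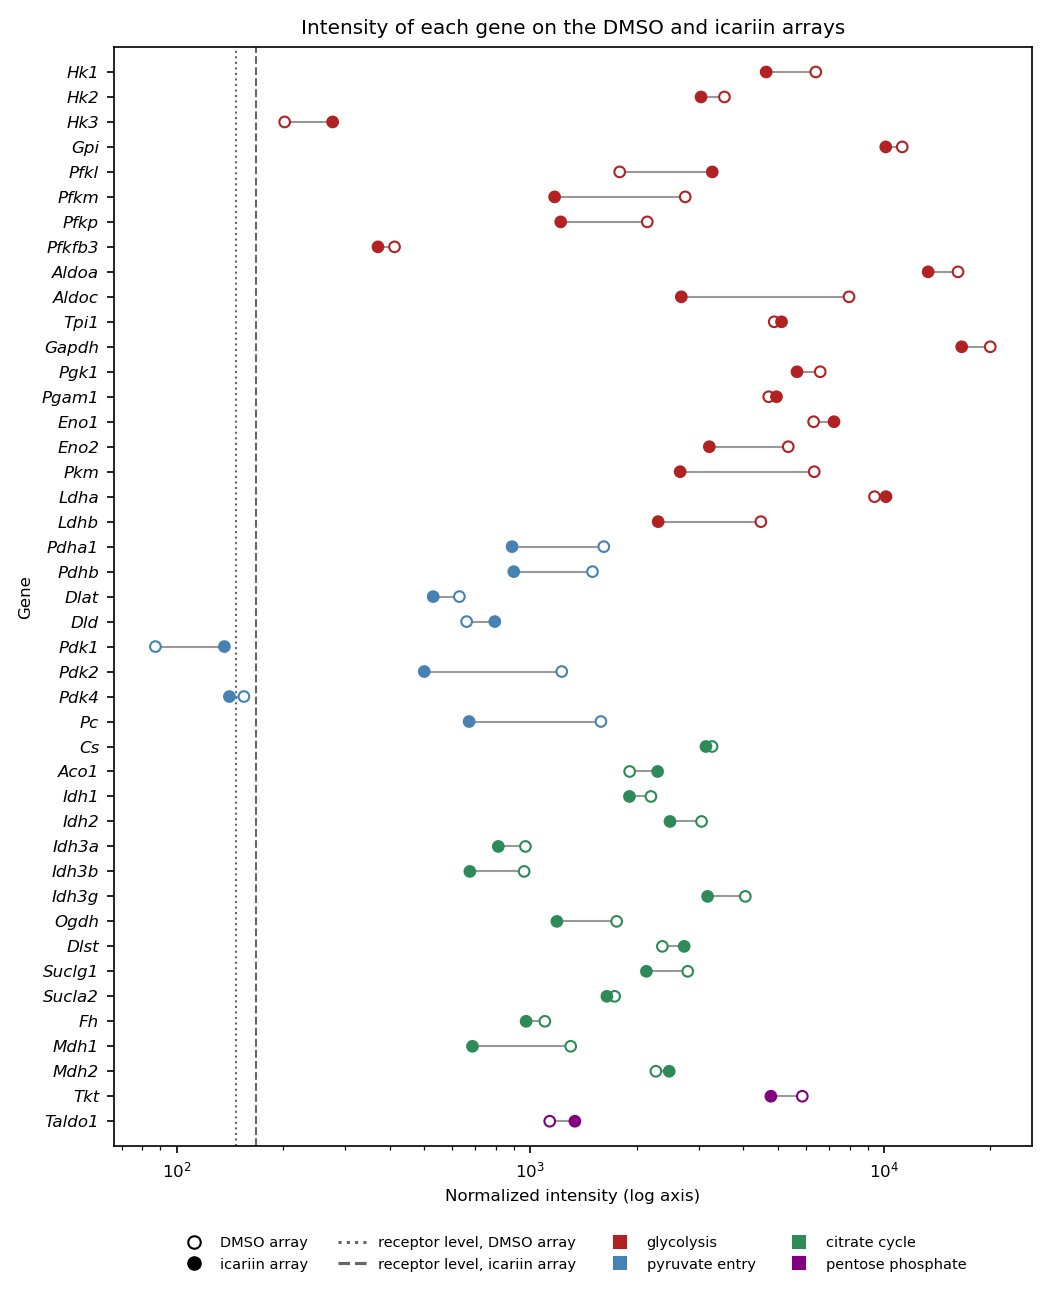
Normalized intensity (log axis) of the 43 genes, with 1 row per gene. Open circles show the DMSO array, filled circles the icariin array, the dotted and dashed lines the receptor level of each array (148 and 168), and colours the pathway; only Pdk1 and Pdk4 fall below these lines on 1 array or both, and the longest connecting lines belong to Aldoc (7965 and 2673), Pdk2 and Pkm.

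The pathway genes were brighter than most of the array, so they were also set beside the brightest detected genes. Of the 3719 brightest detected genes, which held 38 of the pathway genes, 57.6% were lower, the median was -0.08 and 3.36% were at least 2-fold lower. Of the 38 pathway genes there, 28 were lower (73.7%), with a median of -0.27, and 5 were at least 2-fold lower. A guide to the spread between sequences, though not between cultures or arrays, came from 396 genes. Each was measured by 2 sequences above the receptor level on both arrays. The log2 differences of both sequences of such a gene lay 0.36 apart in the median and 1.01 apart at the 90th percentile. Of the 43 pathway genes, 42 were read by 1 sequence of 5 probes each, and 25 had a difference no larger than that median gap. The 5 genes named above were the ones with a difference beyond the 90th percentile of the gaps. That percentile nearly equals the 2-fold filter that picked them, so this is no separate check.

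**Figure D2:**
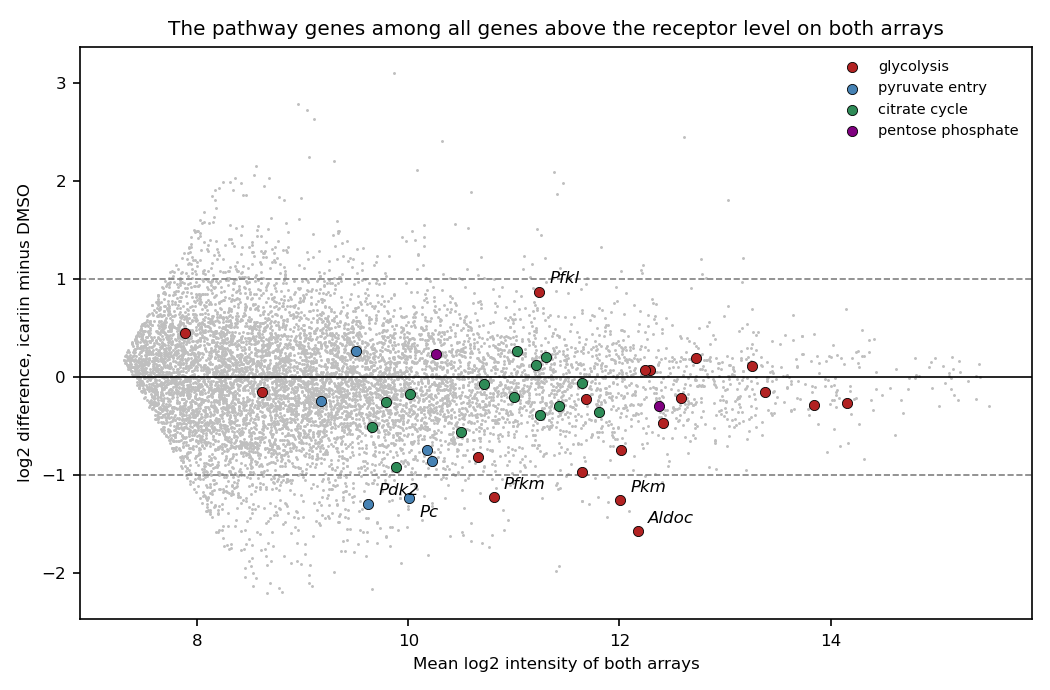
log2 difference, icariin minus DMSO, against mean log2 intensity of both arrays for the 9297 detected genes (grey) and the 41 pathway genes among them (coloured by pathway). Dashed lines mark 2-fold; Aldoc, Pkm, Pfkm, Pdk2 and Pc lie below the lower line and Pfkl, at 0.87, just under the upper one.

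The promoters of the genes at least 2-fold lower, and of Pfkl, the gene with the largest difference upward, are shown because these genes carry the pattern and their regulatory sequences can be set side by side. RefSeq sequences of GRCr8 were matched for 40 genes of the 43, and Pc, Pgk1 and Idh3a had no entry. Each line holds the 250 bases before the annotated start. Capitals mark ACGTG, the core that hypoxia-inducible factors bind, and GGGCGG, the GC box of Sp1 type factors, on either strand.
Aldoc, chr10:63715294-63715543, strand +: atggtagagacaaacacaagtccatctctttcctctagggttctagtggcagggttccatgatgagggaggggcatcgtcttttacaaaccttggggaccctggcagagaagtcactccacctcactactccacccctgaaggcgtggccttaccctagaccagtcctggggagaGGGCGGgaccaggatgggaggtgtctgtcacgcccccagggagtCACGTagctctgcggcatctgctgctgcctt
Pdk2, chr10:80483913-80484162, strand -: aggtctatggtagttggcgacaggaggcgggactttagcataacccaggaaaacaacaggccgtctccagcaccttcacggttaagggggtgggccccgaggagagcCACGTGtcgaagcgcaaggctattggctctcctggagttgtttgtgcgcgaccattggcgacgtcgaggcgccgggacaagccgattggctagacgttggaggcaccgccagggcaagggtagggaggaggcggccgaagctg
Pkm, chr8:68953385-68953634, strand +: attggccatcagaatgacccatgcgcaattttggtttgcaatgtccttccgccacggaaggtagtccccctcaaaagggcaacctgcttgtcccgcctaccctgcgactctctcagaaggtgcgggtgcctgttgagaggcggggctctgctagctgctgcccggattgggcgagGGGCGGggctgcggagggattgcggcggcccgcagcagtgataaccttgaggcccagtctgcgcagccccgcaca
Pfkm, chr7:131113849-131114098, strand +: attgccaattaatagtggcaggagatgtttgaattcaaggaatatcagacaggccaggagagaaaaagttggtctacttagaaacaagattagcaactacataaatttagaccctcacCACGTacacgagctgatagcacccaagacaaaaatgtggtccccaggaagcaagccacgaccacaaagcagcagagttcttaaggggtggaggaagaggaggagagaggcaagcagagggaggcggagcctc
Pfkl, chr20:10663715-10663964, strand +: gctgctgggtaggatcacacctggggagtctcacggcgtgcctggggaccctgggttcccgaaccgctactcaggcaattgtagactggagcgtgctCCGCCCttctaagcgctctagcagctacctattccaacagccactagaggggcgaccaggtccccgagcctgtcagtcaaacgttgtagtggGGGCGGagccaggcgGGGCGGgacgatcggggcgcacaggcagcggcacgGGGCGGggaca

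The HIF core occurred in Aldoc, in Pfkm and in Pdk2, where it lies within the E-box CACGTG and is therefore present on both strands, while the windows of Pkm and Pfkl held no such letters. The Aldoc and Pkm windows held 1 GC box each and that of Pfkl held 4. Over the 44 promoters of the 40 genes, 15 held ACGTG (34.1%), against 16.6% of 33469 promoters in the table and 22.4% of 6796 promoters of detected genes. By pathway it was 10 of 22 for glycolysis, 3 of 7 for pyruvate entry and 2 of 13 for the citrate cycle. Among genes at least 1.5-fold lower it was found in 5 of 10 promoters, and among the others in 10 of 34. The E-box CACGTG was in 5 of the 44 (11.4%) against 5.59% of all promoters and 8.37% of those of detected genes, and every E-box also counts as a HIF core. A GC box was in 26 of the 44 (59.1%) against 30.5% of all promoters and 59.7% of those of detected genes. The letters AAGGTCA, a motif bound by estrogen-related receptors, were in none of the 44, in 3.99% of all and in 2.25% of those of detected genes. The 44 windows were close in base composition to those of detected genes, with a median GC content of 60.2% and 60.4%. It was 51.2% over all promoters and 63.0% for glycolysis, and a match of letters is no measured site.

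In glycolysis, the enzymes of a step did not move alike. Of 19 genes, 13 were lower and 6 higher, 3 passed 2-fold downward and none upward, and the median was -0.22. All 19 were detected. The first step, the phosphorylation of glucose, is carried out by hexokinases. Hk1, the widely expressed form, read 6414 in DMSO and 4644 in icariin, and all pairs of intensities below keep this order. It was 1.38-fold lower. Hk2, an inducible form, read 3539 and 3039. Hk3, a form known from blood cells, was dim and higher, at 202 and 276. Hk1 and Hk2 were thus lower and Hk3 higher, each by less than 1.5-fold. Gpi, which turns glucose 6-phosphate into fructose 6-phosphate, read 11262 and 10116.

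Phosphofructokinase, the committed step of glycolysis, is a tetramer of muscle, liver and platelet type subunits. Pfkm, the muscle type subunit, read 2742 and 1172 and was 2.34-fold lower. Pfkp, the platelet type, read 2141 and 1219, 1.76-fold lower. Pfkl, the liver type, went the other way, from 1790 to 3269, and at 1.83-fold it was the only gene of the 41 detected ones that was at least 1.5-fold higher. The log2 difference of Pfkl exceeded that of Pfkm by 2.10 and that of Pfkp by 1.68. Pfkfb3, which makes and breaks down the phosphofructokinase activator fructose 2,6-bisphosphate, read 413 and 371.

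Fructose 1,6-bisphosphate is cleaved by aldolase. Aldoc, an isoform best known from brain, read 7965 and 2673, a log2 difference of -1.58 and the largest of the 43 genes in either direction. Aldoa, the form of muscle and most other tissues, read 16191 and 13330, 1.21-fold lower. Both aldolases were lower, and the log2 difference of Aldoa lay 1.29 above that of Aldoc.

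The middle of the pathway was nearly level. Tpi1, triose phosphate isomerase, read 4893 and 5133, and Pgam1, phosphoglycerate mutase, 4722 and 4967. Pgk1, phosphoglycerate kinase, read 6602 and 5676. Gapdh, often used as a reference gene in PCR, was read by 2 sequences, of 28306 and 22860 for the one and 14092 and 12031 for the other, with log2 differences of -0.31 and -0.23. Copies of Gapdh sequence are common in the rat genome, and probes may share signal with them. None of these 4 genes differed by as much as the median gap between sequences of 1 gene.

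The last steps again held isoenzymes that differed. Eno1, the widespread enolase, read 6325 and 7223, while Eno2, the enolase known from neurons, read 5362 and 3208, 1.67-fold lower. Pkm, the pyruvate kinase of muscle and proliferating cells, read 6350 and 2653 and was 2.39-fold lower. The sequence carries the older name Pkm2, and which splice form its probes read is not given. Ldha, the subunit of lactate dehydrogenase that dominates in glycolytic tissues, read 9403 and 10131, a log2 difference of 0.11. Ldhb, the subunit of heart and other oxidative tissues, read 4487 and 2299, 1.95-fold lower and so just short of 2-fold. The log2 difference of Ldha lay 1.07 above that of Ldhb, and that of Eno1 0.93 above that of Eno2. Each of these genes was read by 1 sequence. Gaps of at least 1 also occurred between 2 sequences of the same gene, in 10.4% of the 396 genes described above. The gap of the enolases lay below the 90th percentile there, 1.01, and that of the lactate dehydrogenases just above it.

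**Figure D3:**
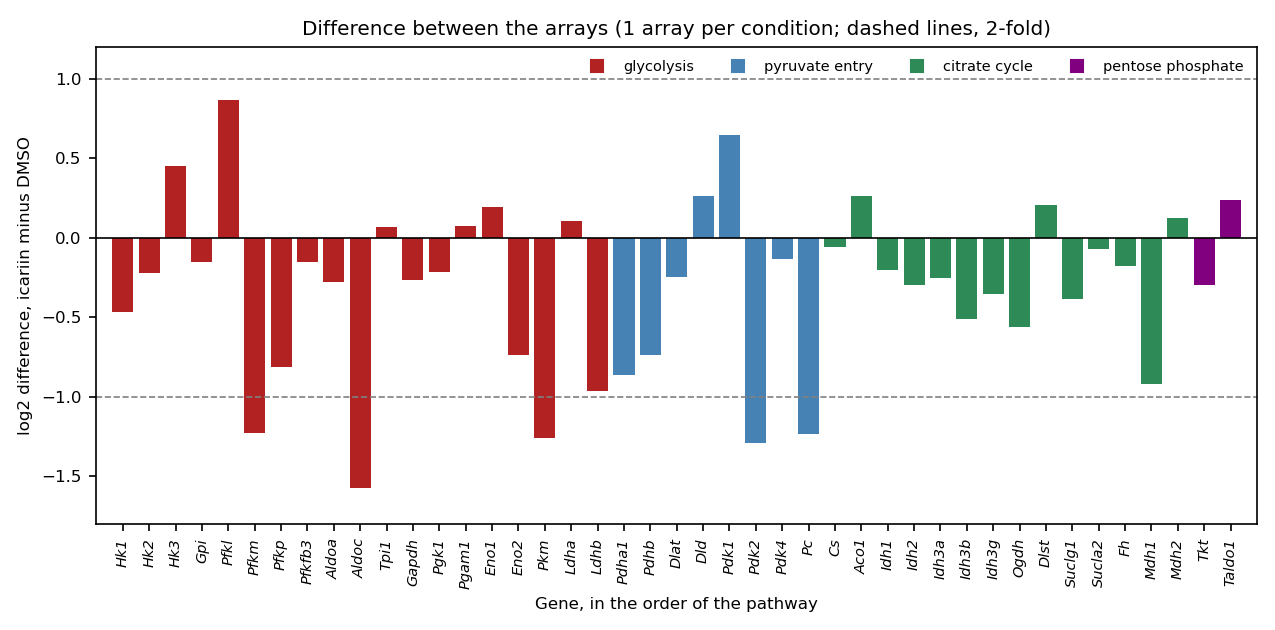
log2 difference, icariin minus DMSO, for each of the 43 genes in the order in which their pathways are described, with bars from 0 and colours for the pathway. Dashed lines mark 2-fold; 31 bars point down and 12 up, and Aldoc (-1.58), Pdk2 (-1.29), Pkm (-1.26), Pc (-1.24) and Pfkm (-1.23) pass the lower line.

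Among the 43 genes, those that lead pyruvate into the citrate cycle had the lowest median of the pathways, -0.49, with 6 of 8 genes lower and 2 higher. Of them, 2 passed 2-fold downward and 4 passed 1.5-fold. This order holds for the listed genes only. Related genes described below had medians of -0.08 for pyruvate entry (8 genes) and -0.61 for the citrate cycle (7 genes). The pyruvate dehydrogenase complex consists of the enzymes E1, E2 and E3. Pdha1, the alpha subunit of E1, read 1614 and 888, 1.82-fold lower, and Pdhb, its beta subunit, read 1499 and 898, 1.67-fold lower. Dlat, the E2 enzyme, read 630.3 and 531.5. Dld, the E3 enzyme, which other dehydrogenase complexes share, was higher, at 661 and 794. Both subunits of E1 thus lay beyond 1.5-fold, and E2 and E3 within it.

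The complex is switched off by the pyruvate dehydrogenase kinases. Pdk2, the form expressed in most tissues, read 1227 and 502 and was 2.45-fold lower. Pdk4, a form induced by fasting, read 155 and 141, and Pdk1, a form induced by hypoxia, read 87.1 and 136. Pdk1 stayed under the receptor level throughout and Pdk4 did so with icariin, so no fold is given for them. Without these 2 genes, the median of pyruvate entry was -0.80, with 5 of 6 genes lower. Pc, which carboxylates pyruvate to oxaloacetate and so refills the cycle, read 1584 and 671 and was 2.36-fold lower. The E1 subunits and the kinase that inhibits them were therefore both lower.

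In the citrate cycle the differences were small and mostly downward. Of 14 genes, 11 were lower and 3 higher, none was at least 2-fold different, and 1 was at least 1.5-fold lower. The median was -0.23, and the range ran from -0.92 to 0.26. Cs, citrate synthase, which opens the cycle, read 3265 and 3138. The NAD-dependent isocitrate dehydrogenase has alpha, beta and gamma subunits, and each was lower, with 969 and 812 for Idh3a, 961 and 675 for Idh3b and 4054 and 3172 for Idh3g. Idh2, the NADP-dependent enzyme of the mitochondrion, read 3049 and 2483, and Idh1, its cytosolic form, 2193 and 1907. All 5 isocitrate dehydrogenase genes were thus lower, between 1.15-fold for Idh1 and 1.42-fold for Idh3b.

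The oxoglutarate dehydrogenase complex, built like that of pyruvate, had subunits in both directions. Ogdh, its E1 enzyme, read 1755 and 1189, 1.48-fold lower, and Dlst, its E2 enzyme, read 2362 and 2723, 1.15-fold higher. The E1 enzyme lay below its E2 enzyme in difference here as it did for the pyruvate complex. The subunits of succinyl-CoA ligase were both lower, with 2787 and 2130 for Suclg1, the alpha subunit, and 1732 and 1647 for Sucla2, the ATP-forming beta subunit. Fh, fumarate hydratase, read 1099.6 and 973.

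Malate dehydrogenase exists as a mitochondrial and a cytosolic enzyme. Mdh1, the cytosolic malate dehydrogenase of the malate-aspartate shuttle, read 1301 and 686, 1.90-fold lower and the largest difference of the group. Mdh2, the enzyme of the cycle itself, read 2265 and 2471, and the log2 differences of both lay 1.05 apart. This gap was close to 1.01, the 90th percentile of gaps between 2 sequences of 1 gene. Aco1, the cytosolic aconitase that also serves as an iron-responsive RNA-binding protein, read 1910 and 2291. Of the pentose phosphate pathway, which makes NADPH and ribose, Tkt, transketolase, read 5876 and 4788 and Taldo1, transaldolase, 1135 and 1337.

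Other genes of the same pathways, 75 in 7 lists, were looked at to see whether they followed. Of them, 27 were higher and 48 lower, and the median was -0.16, but 29 were not detected. By measured intensity 5 passed 2-fold in each direction, 6.67% each way, which is close to the shares over all genes, and of these 10 only Slc16a3 was detected. The rest of the citrate cycle had 6 of 7 genes lower and a median of -0.61. Of succinate dehydrogenase, which is also complex II of the respiratory chain, Sdha read 4386 and 2876, Sdhb 1172 and 734 and Sdhd 1314 and 899.9, while Sdhc was level at 2572 and 2697. Suclg2, the GTP-forming beta subunit of succinyl-CoA ligase, was 1.35-fold lower as the mean of its sequences. Ogdhl, an isoform of Ogdh, read 280 and 93.1 and was at least 1.67-fold lower, where "at least" means that values below 168, the higher receptor level, were raised to it. This floor is a convention, since some receptor genes lie above it.

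Glucose transporters and lactate exporters are the ends of the pathway at the plasma membrane. Of 14 genes for glucose and lactate transport, 11 were lower and 3 higher, and the median was -0.47. Slc2a1, the main glucose transporter GLUT1, read 11777 and 7576, 1.55-fold lower, and Slc2a3, GLUT3, 736 and 514. Slc2a8, another member of the family, was 1.73-fold lower. The 3 higher genes were all monocarboxylate transporters, of which only Slc16a3 was detected. Slc16a3, which encodes MCT4 and exports lactate from glycolytic cells, read 462 and 953, 2.06-fold higher. Slc16a7 (121 and 283) was at least 1.69-fold higher, and Slc16a8 (47.1 and 121) stayed under the receptor level throughout. Slc16a1, which encodes MCT1, read 1349 and 1238, and Bsg, the chaperone of these transporters, 16636 and 13676.

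In the list of other glycolytic enzymes, 9 of 15 genes were higher and 6 lower, but 8 of the 15 were not detected. Tigar, a phosphatase that lowers fructose 2,6-bisphosphate, read 190 and 374, and Pgm1, a phosphoglucomutase, 1183 and 730. Pgam2 (91.5 and 181), the muscle form of the mutase, and Pfkfb1 (154 and 69.6), the liver form of the bifunctional enzyme, were dim on at least 1 array. Of the other genes for pyruvate entry, 5 of 8 were lower and 3 higher, and the median was -0.08. Pdhx, a binding protein of the complex, read 171 and 267. Mpc1, a subunit of the mitochondrial pyruvate carrier, read 685 and 468 and its partner Mpc2 602 and 588, while Pdha2, known from testis, was at least 1.34-fold higher (72.7 and 224).

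Among 8 further genes of the pentose phosphate pathway 5 were higher and 3 lower. H6pd, an enzyme of the endoplasmic reticulum that makes NADPH, was at least 1.73-fold higher (103 and 289), and Shpk, sedoheptulose kinase, was dim throughout (119 and 43.6). Of 7 genes of gluconeogenesis none differed 2-fold and 4 were not detected. Slc37a4, the transporter of glucose 6-phosphate, read 642 and 443, and G6pc1 (60.6 and 106) and Fbp1 (108 and 171), the glucose and fructose phosphatases of liver, were dim. Of 16 genes for glutamine use and for exchange with the cycle, 13 were lower. The largest differences were those of Slc25a13 (348 and 164) and Slc25a12 (229 and 81.3), the aspartate-glutamate carriers of the malate-aspartate shuttle, which lay under the receptor level with icariin and were at least 2.08-fold and at least 1.37-fold lower. Got1, the cytosolic aminotransferase of that shuttle, read 3568 and 2174, and Gpt2, the mitochondrial alanine aminotransferase, was 1.83-fold higher.

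**Figure D4:**
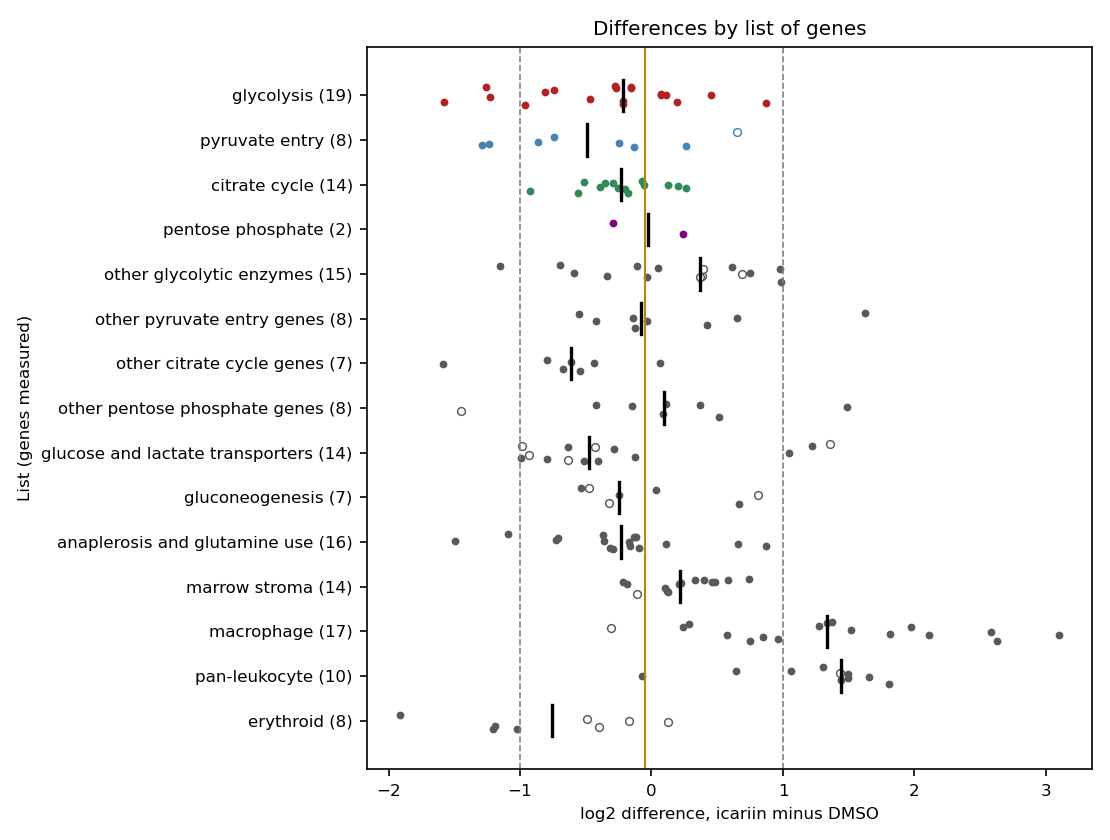
log2 difference, icariin minus DMSO, of each gene in the 4 groups of pathway genes (coloured), the 7 lists of related genes and the 4 lists of cell type markers (grey), with the number measured in brackets. Black bars are medians, the ochre line is the median of detected genes (-0.05), dashed lines mark 2-fold, and open circles are genes under the receptor level on both arrays; the macrophage and leukocyte lists have medians of 1.33 and 1.44, against -0.22 for glycolysis, -0.49 for pyruvate entry and -0.23 for the citrate cycle.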

How the data were processed

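Total RNA of 1 culture of DMSO-treated and 1 of icariin-treated rat BMSCs was labelled with Cy3 and hybridised to NimbleGen rat expression arrays. The deposited intensity values had been made by the authors in NimbleScan by quantile normalization and RMA, and are on a linear scale. Software version and background correction were not given in the sources used here. Quantile normalization removes a shift shared by all transcripts. Of 26419 sequences, 20681 were named by gene identifier and 31 by accession through the RefSeq table of GRCr8, and 5707 by the symbol on the array. The log2 values of sequences of 1 gene were averaged. A fold of 2 was the filter, since the methods name fold change filtering without a fold. The members, lists and alternatives were chosen with earlier results of these data known. All 44 genes are accounted for, the genes at least 2-fold different and the 5 of each pathway with the largest differences being given in full, and of related genes those at least 2-fold different above the receptor level on the brighter array and the 2 largest per list. Further related genes were named after their values were seen, and some genes of these lists are not reported here. The fold filter was run on simulated data with known changes, which checks the calculation and not the rate of false calls here. Python 3.11.15, pandas 2.3.3 and statsmodels 0.14.6 were used. The standard errors in the array files have no stated scale and were not used. The number of arrays limits the precision.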

Additional observations from a re-analysis of the deposited data

How the results depend on the processing

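No paired analysis was possible because each condition had 1 array. Tried were the authors' value table, subtraction of a loess curve over level (span 0.3), centring on detected genes (their median was -0.05), the sequence with the highest level, 64 added to both values, values raised to 168, detected genes alone, and folds of 1.5 and 3. Aldoc, Pkm, Pfkm, Pdk2 and Pc were at least 2-fold lower in each setting, the 3-fold filter aside. Only loess, centring and the added 64 changed their values. The other settings left these values as they were and are no separate check. The medians of glycolysis, the citrate cycle and all members moved by less than 0.1 on the log2 scale, but they were small themselves. With loess they were -0.15, -0.14 and -0.16, against -0.22, -0.23 and -0.25 before. Lower values then numbered 9 of 14 in the citrate cycle in place of 11, and 29 of all 43 in place of 31. Glycolysis kept 13 of 19. The sign of Cs and Sucla2 turned after loess (0.02 and 0.01), and Pdk1 and Pdk4 became 0 when raised to 168. The median of pyruvate entry was -0.80 over detected genes, where Pdk1 and Pdk4 drop out. The median of Tkt and Taldo1, -0.03, turned to 0.0172 with centring and 0.0492 with loess.

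At a fold of 1.5, 2 members were higher and 11 lower, and 3974 and 4302 of all genes. At 3-fold no member differed, and 357 genes were higher and 392 lower. Over all genes, 1577 were at least 2-fold higher and 1697 lower. These counts were 542 and 687 with 64 added, 363 and 601 with values raised to 168, and 276 and 412 among detected genes, where dim genes no longer count.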
